A study of Drosophila melanogaster with 3 samples.

Results

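The regions described here are the Dad-GFP peaks that lay deep inside introns. They were taken from a chromatin immunoprecipitation (ChIP-seq) experiment on whole Drosophila melanogaster embryos aged 0 to 24 h, of both sexes, from a transgenic line that stably expresses Dad with GFP at its C terminus. Chromatin was sonicated to fragments of 200 to 800 bp, and the labels' description names an antibody against GFP, while their antibody field names Dad. Whether untagged Dad could enter the precipitate is therefore not given by the labels. There were 3 biological replicates of this single genotype and no second condition, and the labels give neither the promoter that drives the fusion nor the level at which it is made. Control libraries were not analysed here, so no value below has a background measured in untagged embryos or input. The submitters' optimal list, in the dm6 assembly, held 3392 peaks that were reproducible between replicates. A peak was counted when its summit, the position of highest signal within it, lay in an intron, in no exon of any transcript, and more than 2000 bp from the nearest transcription start site (TSS) of any gene. This gave 477 peaks, 14.1% of the list. They lay in 321 host genes, of which 312 code for protein. Within that list location alone chose these peaks, and their signal and sequence were not used. The list itself holds only peaks that were reproducible between replicates, which limits how weak a peak can be. The rule also leaves out regions near a TSS and admits only hosts whose introns reach beyond 2000 bp from any TSS. Host genes and sequence were therefore not free of the rule.

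Daughters against dpp (Dad) is the inhibitory Smad of the bone morphogenetic protein (BMP) pathway in flies. The ligand Decapentaplegic (dpp) signals through serine/threonine kinase receptors to the Smad protein Mad, which enters the nucleus with its partner Medea and regulates target genes. Dad is itself such a target, and its product dampens the receptors and Mad, closing a negative feedback loop. Introns of Drosophila developmental genes often hold enhancers, the stretches of regulatory DNA that act on a promoter from a distance. Whether the intronic regions seen here act as enhancers was not measured.

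The signal of a region is the peak caller's own value and is not scaled between libraries. Each replicate's value at a peak was therefore divided by the median of that replicate over all optimal peaks. A relative signal of 1 thus marks an ordinary optimal peak. Those medians were 42.6, 35.6 and 51.1 in replicates 1, 2 and 3. The number of reads behind these values is unknown, and p-values over 3 replicates could not go below 0.25.

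Summit windows of 201 bases are printed for chosen peaks. They are given for 5 of the 6 strongest peaks outside one chromosome arm and for 3 peaks in Dad. The Dad windows are those of its strongest peak and of its peaks that hold a Mad site. Mad sites in them therefore follow from the choice. Windows are also given for the strongest peak in each of 4 other genes of the BMP pathway or its targets. A further window is of 1 peak that holds a promoter element rare among the intronic peaks. All are the plus strand of the RefSeq release 6 genome, the same assembly as dm6, with the summit at base 101. Capitals mark matches on either strand to 6 motifs, which are the Mad site GCCGNCGC, the Smad box GTCTG, the Brinker site GGCGCC, the BEAF-32 site TCGATA, the AP-1 site TGANTCA and the GAGA repeat GAGAGAG. A match on the minus strand appears as the reverse complement.
Tlk (chrX:3742116-3742316): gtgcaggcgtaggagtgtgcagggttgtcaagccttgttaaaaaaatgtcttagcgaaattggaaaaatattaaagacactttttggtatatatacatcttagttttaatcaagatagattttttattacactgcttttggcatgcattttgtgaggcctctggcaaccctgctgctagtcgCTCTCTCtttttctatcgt
CG32486 (chr3L:3060713-3060913): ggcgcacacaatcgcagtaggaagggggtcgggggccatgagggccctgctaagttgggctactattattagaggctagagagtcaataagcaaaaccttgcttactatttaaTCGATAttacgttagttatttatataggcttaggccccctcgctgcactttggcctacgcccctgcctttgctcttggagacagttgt
Raf (chrX:2297630-2297830): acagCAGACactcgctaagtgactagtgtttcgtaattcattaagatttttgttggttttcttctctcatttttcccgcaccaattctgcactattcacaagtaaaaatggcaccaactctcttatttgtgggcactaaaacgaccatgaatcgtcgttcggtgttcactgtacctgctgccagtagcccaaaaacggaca
Gug (chr3L:8458238-8458438): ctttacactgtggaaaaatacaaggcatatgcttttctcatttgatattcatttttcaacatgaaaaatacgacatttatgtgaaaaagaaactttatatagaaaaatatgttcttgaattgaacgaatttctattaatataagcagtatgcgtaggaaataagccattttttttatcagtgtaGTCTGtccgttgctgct
mnb (chrX:17880364-17880564): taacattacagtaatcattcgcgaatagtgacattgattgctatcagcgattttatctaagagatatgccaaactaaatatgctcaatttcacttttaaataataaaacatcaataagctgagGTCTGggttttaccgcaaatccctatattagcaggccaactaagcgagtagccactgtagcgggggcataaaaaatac
Dad (chr3R:17065092-17065292): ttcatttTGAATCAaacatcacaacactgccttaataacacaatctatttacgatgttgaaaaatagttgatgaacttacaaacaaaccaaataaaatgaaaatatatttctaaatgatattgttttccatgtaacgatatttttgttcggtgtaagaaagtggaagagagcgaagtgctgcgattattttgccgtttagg
Dad (chr3R:17056807-17057007): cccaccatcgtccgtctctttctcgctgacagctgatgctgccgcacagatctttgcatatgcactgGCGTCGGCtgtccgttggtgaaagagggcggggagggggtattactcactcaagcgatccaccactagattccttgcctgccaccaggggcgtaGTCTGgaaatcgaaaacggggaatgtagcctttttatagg
Dad (chr3R:17065292-17065492): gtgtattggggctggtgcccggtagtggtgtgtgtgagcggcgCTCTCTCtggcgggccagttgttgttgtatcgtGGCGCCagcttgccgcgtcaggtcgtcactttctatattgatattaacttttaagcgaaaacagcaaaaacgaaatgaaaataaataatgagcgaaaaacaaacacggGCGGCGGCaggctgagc
dpp (chr2L:2433533-2433733): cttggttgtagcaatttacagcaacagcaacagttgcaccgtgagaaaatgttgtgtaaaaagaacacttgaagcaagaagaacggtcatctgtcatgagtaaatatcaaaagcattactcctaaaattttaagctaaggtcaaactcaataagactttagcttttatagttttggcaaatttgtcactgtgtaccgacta
dlp (chr3L:14666077-14666277): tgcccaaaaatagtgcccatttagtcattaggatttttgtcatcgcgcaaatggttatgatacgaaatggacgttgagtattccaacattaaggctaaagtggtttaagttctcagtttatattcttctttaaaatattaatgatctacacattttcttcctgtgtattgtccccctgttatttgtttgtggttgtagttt
sog (chrX:15622934-15623134): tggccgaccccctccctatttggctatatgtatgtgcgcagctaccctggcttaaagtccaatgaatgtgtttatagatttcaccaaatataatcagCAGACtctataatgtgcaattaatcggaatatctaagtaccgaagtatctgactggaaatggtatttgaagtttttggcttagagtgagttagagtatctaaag
ush (chr2L:485759-485959): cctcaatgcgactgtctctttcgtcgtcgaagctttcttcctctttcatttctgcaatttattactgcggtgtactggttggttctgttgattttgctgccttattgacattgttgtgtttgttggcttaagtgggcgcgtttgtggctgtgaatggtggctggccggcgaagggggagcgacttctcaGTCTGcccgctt
lncRNA:CR44357 (chrX:7277107-7277307): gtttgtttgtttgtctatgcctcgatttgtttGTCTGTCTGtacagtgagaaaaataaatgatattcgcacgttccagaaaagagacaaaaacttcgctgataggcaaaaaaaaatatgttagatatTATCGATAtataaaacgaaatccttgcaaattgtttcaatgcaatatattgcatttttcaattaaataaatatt
The windows of Tlk, Gug and mnb were rich in A and T near the summit, and across the window their GC content ran from 28.9% in Gug to 37.8% in Tlk. The windows of CG32486 and Raf had a higher GC content, at 49.3% and 42.3%. None of these 5 strongest windows held a Mad site or a Brinker site. Within Dad, the strongest window held an AP-1 match and neither of these sites. The window of 55.2% GC held a Mad site and a Smad box. The last of the 3 windows held a Mad site, a Brinker site and a GAGA repeat. The Dad windows with a Mad site were chosen because they hold it.

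The strongest distal intronic peak lay in Tlk, which encodes Tousled-like kinase, a regulator of chromatin assembly. Its signal in the optimal list was 746.8, and its relative signal was 6.07, 5.41 and 5.93 in replicates 1, 2 and 3, with its summit 2319 bp from the nearest TSS. The peak in CG32486 followed, at 5.43, 4.44 and 4.67. Raf, the kinase that relays receptor tyrosine kinase signals to the MAP kinase cascade, held the next strongest, at 4.90, 4.21 and 4.44. In these peaks every replicate was more than 4 times its own median peak, and Tlk was above Raf in all 3. The next was in Gug, which encodes the corepressor Atrophin, at 3.20, 3.60 and 3.74. In Lrch, which encodes a leucine-rich repeat protein, replicate 2 stood apart, since the values were 2.88, 4.57 and 2.91. The kinase gene mnb gave 3.37, 2.99 and 2.92. The histone kinase gene JIL-1 gave 2.87, 3.62 and 2.79. Ranks 4 to 8 overlapped between replicates and cannot be put in order. The strongest peak in Dad, which lies among them, had the widest range of them, from 2.08 in replicate 1 to 3.24 and 4.03 in replicates 2 and 3.

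**Figure D1:**
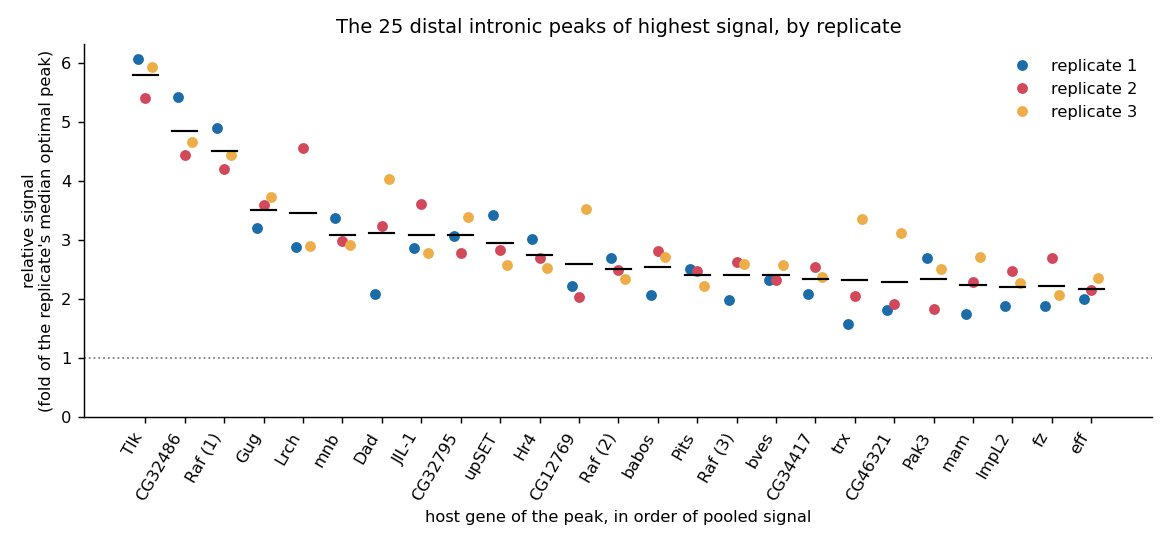
Relative signal (vertical axis, fold of the median optimal peak in the same replicate, dotted line at 1) of the 25 distal intronic peaks of highest pooled signal, named by host gene in order. Points are replicates and bars their mean; Tlk, CG32486 and the first Raf peak lie above 4 in each replicate, and the last of the 25, in eff, between 2.00 and 2.36.

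The remaining peaks among the 25 strongest ran from CG32795, with a signal of 392.8, down to eff, with 287.8. eff encodes a ubiquitin-conjugating enzyme. CG32795 lies within the span of kirre, which is a second host of that peak. Chromatin genes were among them. upSET, which encodes a SET-domain protein, gave relative signals of 3.42, 2.84 and 2.58. trx, the founding trithorax gene and a histone methyltransferase, gave 1.57, 2.05 and 3.36. The trx peak was lowest in replicate 1 and highest in replicate 3, and so were those of CG46321 and mam. mam encodes the Notch coactivator Mastermind, with values of 1.75, 2.28 and 2.71. fz, the receptor gene Frizzled, held the most distant of the 25, with its summit 22172 bp from a TSS and values of 1.89, 2.69 and 2.07. The other hosts were Hr4, CG12769, babos, Pits, bves, CG34417, Pak3 and ImpL2, with Raf appearing 3 times. All 25 were among the strongest 3392 regions of every replicate.

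Distal intronic peaks made up 1 of the 25 strongest optimal peaks, 3 of the strongest 100, 22 of the strongest 300 and 115 of the strongest 1000. Among each replicate's own strongest 100 regions they made up 4.33% ± 1.53 (SD, n = 3), against 14.1% ± 0.784 of its strongest 3392. The median relative signal of the 477 peaks was 0.929, 0.966 and 0.941, and that of the other 2915 was 1.01, 1.00 and 1.01. The difference, distal intronic minus other, was -0.095 ± 0.037 on the log2 scale (SD, n = 3) and was below 0 in 3 of 3 replicates (exact sign-flip test over replicates, two-sided, p = 0.25, the smallest the design allows). At the 90th percentile the gap was wider, at -0.33 ± 0.078 (exact p = 0.25). The medians thus lay close together and the upper tails lay further apart. Set against the 187 intergenic peaks also beyond 2000 bp from a TSS, the intronic ones were slightly higher, by 0.085 ± 0.027 on the log2 scale, above 0 in 3 of 3 replicates (exact p = 0.25). Against the 342 intergenic peaks beyond 500 bp the difference was -0.00093 ± 0.0063 and its sign was mixed (exact p = 0.75).

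Replicate support was close to that of the whole list. The strongest 3392 regions of all 3 replicates overlapped 260 of the 477 peaks, 54.5% (95% Wilson interval 50.02% to 58.9%, counting error only), beside 57% of all optimal peaks. The optimal list was itself selected on these libraries, so this share is a description. Support tracked signal in both groups. In the 25% of optimal peaks of highest signal 95 of 95 distal intronic peaks were in all 3 replicates, and in the 25% of lowest signal 8 of 121 were, 6.61%, against 7.15% of the other peaks. The median coefficient of variation of relative signal across replicates was 22.2%, and it was 23.2% for the other peaks.

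The peaks were not spread evenly over the DNA open to them. Introns beyond 2000 bp from any TSS cover 41.4 Mb, 31.0% of the chromosome arms, and carried 11.5 peaks per Mb. Density was 16.6 per Mb (95% Poisson interval 13.3 to 20.4, counting error only) between 2000 and 3000 bp from a TSS and 18.1 per Mb (14.3 to 22.6) between 3000 and 4000 bp, so these intervals overlap. In the replicates' own strongest regions the densities were 19.2, 19.0 and 18.6 in the nearer bin and 17.9, 17.4 and 18.6 in the next. Beyond 20000 bp the optimal list had 3.27 per Mb (2.19 to 4.70). The 30000 regions of the unthresholded pooled list went from 230 per Mb between 2000 and 3000 bp to 41.3 per Mb beyond 20000 bp. By chromosome, density was 14.6 per Mb on X, 12.9 on 2L, 11.1 on 2R, 11.0 on 3L and 9.61 on 3R. Chromosome 4 held 0 peaks in 0.442 Mb, which allows up to 8.34 per Mb at the upper Poisson limit, and its pooled regions were sparse too, at 47.5 per Mb against 146 over all arms. The median peak lay 5261 bp from a TSS (quartiles 3406 and 9125), and the farthest 49807 bp. For 152 of the 477 the nearest TSS belonged to a gene other than the host.

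A first intron of at least one transcript contained 287 of the 477 summits, 60.2% (Wilson interval 55.7% to 64.5%), while first introns make up 37.6% of the eligible bases. In each replicate's own strongest regions the share was 62.7%, 66.2% and 60.5%. Of the distal intronic pooled regions outside the optimal list 53.7% were also in a first intron, so regions below the threshold also exceeded the share of bases. Long host introns were usual, with a median of 17.8 kb.

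Unthresholded intronic regions entered the optimal list at a lower share than regions near a TSS. The pooled list held 6044 distal intronic regions, and 553 of them overlapped an optimal peak, 9.15% (8.45% to 9.90%), beside 13.8% of all pooled regions. For regions within 500 bp of a TSS the share was 25.8%, and for intergenic regions beyond 2000 bp it was 8.49% (7.47% to 9.63%), an interval that overlaps that of the intronic regions. Distal intronic regions formed 21.2% of the pooled regions outside the optimal list and 14.1% of the optimal list.

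Some genes held several distal intronic peaks. Of the 321 hosts, 229 held 1 peak and 92 held 2 or more, with 248 peaks between them. The 16 hosts with 4 or more held 78 peaks. sbb, which encodes the corepressor Brakeless, had 9, all in its first intron of 65649 bp. Their signals ran from 89.9 to 218.0, and 6 of the 9 were supported by all 3 replicates. kirre, an adhesion gene that marks the founder cells of muscle, had 7 with kirre as the primary host, in a single intron of 133764 bp. Its strongest, with values of 2.22, 2.12 and 1.76, lay closest to a TSS, at 2366 bp. Raf had 6 within 8.77 kb of the same intron, and the values alternated along it, at 4.44 in replicate 3 for the first, then 1.00, 2.59, 1.18, 2.34 and 0.84 in order from the 5′ end of the gene. In replicates 1 and 2 peaks 1, 3 and 5 in this order were likewise above both of their neighbours. 11 pairs of peaks overlapped each other, so that some close neighbours share replicate regions, as did a pair in sbb, a pair in simj and a pair in Dad.

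**Figure D2:**
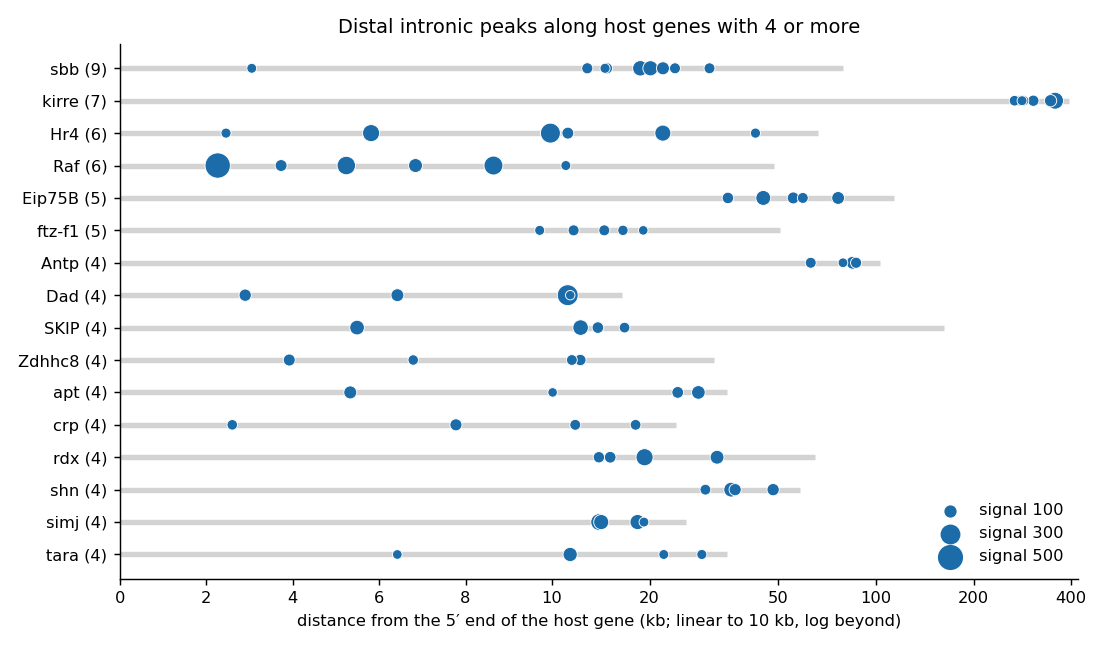
Positions of the distal intronic peaks (points, area in proportion to signal) along the 16 host genes with 4 or more of them (grey bars, gene length), as distance from the annotated 5′ end in kb on an axis that is linear to 10 kb and logarithmic beyond. Numbers in parentheses are peaks; the 7 in kirre lie near the 3′ part of the gene, and the 6 in Raf within the first part.

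Several of these hosts belong to the ecdysone response. Ecdysone is the steroid hormone of insects, and its pulses switch on a cascade of nuclear receptors. Hr4 had 6 peaks, of which the strongest gave relative signals of 3.03, 2.69 and 2.54. Eip75B had 5, with the strongest at 1.83, 1.65 and 1.27. ftz-f1 had 5 as well, all weak, with signals from 83.9 to 111.6 and none supported by all 3 replicates. Hr3 held 3 peaks, 2 of them with signals of 303.7 and 267.5, where it shares its DNA with other genes. Of 23 eligible genes on the list of nuclear receptors and ecdysone response genes, 6 held a distal intronic peak, with 22 peaks in all. Their density was 36.8 per Mb (Poisson interval 23.0 to 55.7), and the pooled list held 271 regions per Mb in these genes. Over all 4221 protein-coding genes with any eligible intronic base the share with a peak was 7.63%. Peak density there was 11.5 per Mb and pooled density 147 per Mb. The listed genes had a median of 18.5 kb of eligible intron, against 1.64 kb for all genes. The lists were chosen with earlier results of these data known, and no test was made of them.

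The remaining hosts with 4 peaks each had varied roles. Antp is the homeotic gene of the second thoracic segment, and its peaks had signals from 87.0 to 151.1. rdx encodes a ubiquitin ligase adaptor of the Hedgehog pathway, and its strongest peak gave 2.04, 1.56 and 2.34. simj encodes a subunit of a nucleosome remodelling complex, and its strongest gave 1.43, 1.62 and 2.75. apt and crp encode transcription factors. tara, SKIP and Zdhhc8 completed the group, with strongest signals of 186.7, 222.4 and 132.7. None of these was among the 25 strongest.

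In the BMP pathway, 8 of 19 eligible genes held a peak, with 18 peaks and 59.5 per Mb (Poisson interval 35.2 to 94.0), beside 7.63% of all eligible genes and 11.5 per Mb. Dad is the tagged gene, and the part of the transgene in its signal was not tested. Without Dad the count was 7 of 18 genes, with 14 peaks and 47.9 per Mb. In each replicate's own strongest regions 9, 8 and 8 of the 19 held one. The pooled list was also denser in these genes, at 387 regions per Mb against 147 for all eligible genes, and 17.1% of those pooled regions overlapped an optimal peak against 9.12%. Chromatin regulators, the other list of high density, had 62.1 peaks per Mb (26.8 to 122.3) and 357 pooled regions per Mb, of which 17.4% overlapped an optimal peak. These values were thus not particular to the BMP list.

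Dad held 4 peaks in its introns. The strongest, in its intron 4, 7483 bp from a TSS, had a signal of 400.3. The next lay in intron 2 and gave 1.14, 0.91 and 1.44. A further peak, in the first intron, lay 2010 bp from a TSS and gave 0.94, 1.47 and 0.99. It was the intronic peak just inside the distance limit, and the closest outside was in Lerp at 1996 bp. Another overlapped the strongest and took the same replicate regions, so its replicate values are not its own; its signal in the optimal list was 82.2. The Mad sites in the first-intron peak and in the overlapping peak are in the windows printed above, which were chosen for holding them.

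The ligand gene dpp held 1 peak, in its first intron 5261 bp from a TSS, with values of 1.44, 1.09 and 1.57. Among the genes of extracellular proteins that shape the gradient, dlp, a glypican gene, had 2 peaks, the stronger at 1.66, 1.93 and 2.22. The other glypican gene, dally, had 1, at 0.91, 0.76 and 0.99. sog, which encodes a secreted BMP antagonist, had 2, the stronger at 1.18, 1.31 and 1.28. The dpp peak and the stronger dlp and sog peaks were above 1 in every replicate, and the dally peak was below 1 in every replicate. cv-2, a BMP-binding protein gene, had 3, and its strongest varied from 0.96 to 1.88. In the nucleus, shn, whose zinc-finger product represses targets together with the Smads, had 4, the strongest at 1.24, 1.91 and 1.70. nmo, a kinase gene that acts on Mad, had 1, at 1.22, 1.33 and 0.67. The activin branch, which signals through another Smad, had 0 of 5 eligible genes with a peak. Their eligible introns came to 0.0127 Mb and held 1 pooled region, and a count of 0 there allows up to 291 per Mb, so no difference from the other lists can be read.

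Of the Dpp target list, 5 of 20 eligible genes held a peak, with 10 peaks and 30.5 per Mb, and without Dad 4 of 19 with 6. ush, which encodes a cofactor of GATA factors, had 3, the strongest at 1.52, 1.70 and 1.56. Its weakest had no region in replicate 1, and gave 0.73 and 1.25 in replicates 2 and 3. Ubx, a homeotic gene, had 1 at 1.00, 0.90 and 0.71. bs, which encodes the fly serum response factor, had 1 at 0.68, 0.62 and 0.85. Dad and dally are on both lists, so the lists are not independent.

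For the other lists the share of genes depends on how much intron they have, so the density per Mb is given beside the 11.5 of all genes. Density varied with gene length as well. It was 18.5 per Mb in eligible protein-coding genes of 5000 to 10000 bp and 5.88 in those over 80000 bp. The value of 11.5 is therefore not matched for gene length in any list, the BMP list included. In the Notch and EGFR lists 9 of 27 genes held a peak, with 16 peaks and 37.7 per Mb (21.6 to 61.3). Next to Raf and mam, the strongest were in aos, the secreted EGFR inhibitor Argos, at 1.44, 2.10 and 2.80. In the Wnt, Hedgehog, Hippo and JAK/STAT list the count was 7 of 40 at 22.8 per Mb (11.8 to 39.9), led by fz, by kibra at 1.65, 1.38 and 0.97, and by ex at 1.34, 1.37 and 0.87. kibra and ex act upstream in the Hippo pathway. Cytoskeleton and kinase genes gave 8 of 46 at 16.6 per Mb (9.10 to 27.9), led by msn at 1.61, 1.77 and 1.46, by the insulin receptor gene InR at 1.23, 2.29 and 0.79, and by sick at 1.08, 1.07 and 0.76. InR was high in replicate 2 and low in replicate 3.

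Transcription factor and tissue lists were mixed. Zinc-finger and BTB factors gave 10 of 38, with a median of 15.7 kb of eligible intron against 1.64 kb for all genes, and their density of 12.3 per Mb (6.34 to 21.4) was near that of all genes. They were led by rib at 1.66, 1.65 and 1.66, ush, and ken at 1.83, 1.48 and 1.52. Homeobox and other developmental factors gave 6 of 60 at 12.1 per Mb (6.04 to 21.6), led by ct at 1.81, 1.60 and 1.22, Antp, and Lim1 at 1.13, 1.26 and 0.82. Chromatin regulators gave 6 of 41, with a median of only 0.518 kb of eligible intron, led by trx, by Mi-2 through a peak also assigned to Su(Tpl) at 1.49, 2.37 and 1.79, and by Psc at 1.57, 1.36 and 2.11. Muscle and mesoderm genes gave 6 of 24 at 20.4 per Mb (11.1 to 34.2), led by kirre, then Dys at 1.60, 0.92 and 1.19 and Mef2 at 1.29, 1.70 and 0.77. Axon guidance and adhesion genes gave 14 of 100 at 7.19 peaks per Mb (4.61 to 10.7), led by kirre, mew at 1.39, 2.15 and 1.98, and Ten-a at 1.28, 1.37 and 1.25. That density was lower than the 11.5 of all genes. The list had a median of 23.2 kb of eligible intron, and density in eligible protein-coding genes over 80000 bp long was 5.88 per Mb. The part of gene length was not tested. In the smaller sets of regions shared by 2 replicates, chromatin regulators fell from 14.6% of genes to 7.32% without replicate 2 and to 9.76% without replicate 1 or 3. Cytoskeleton and kinase genes fell from 17.4% to 10.9% without replicate 1 or 3, and axon guidance genes from 14% to 9% without replicate 2. Other lists fell as well. Nuclear receptor and ecdysone genes went from 26.1% to between 17.4% and 21.7%, and muscle and mesoderm genes from 25% to 16.7%. Zinc-finger and BTB factors went from 26.3% to between 18.4% and 23.7%, and homeobox factors from 10% to between 6.67% and 8.33%. The Wnt, Hedgehog, Hippo and JAK/STAT list went from 17.5% to between 12.5% and 15%. At lowest, Notch and EGFR genes were at 25.9% and Dpp targets at 20%. The BMP list stayed at 42.1% each time, and all eligible genes fell from 7.63% to between 5.26% and 5.64%.

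Ion channel and synaptic genes had none. Of 77 eligible genes, which included Sh with 82.5 kb of eligible intron and para with 53.8 kb, 0 held a distal intronic peak in 1.55 Mb. A count of 0 allows up to 2.38 per Mb at the upper Poisson limit, against 11.5 over all genes. The pooled list held 82 regions in these introns, 52.9 per Mb against 147 for all eligible genes. Of the 82, 0% overlapped an optimal peak (Wilson interval up to 4.48%), against 9.12% for all eligible genes. In the replicates' own strongest regions 3, 1 and 2 of these genes held one, and in the regions shared by replicates 1 and 3, with replicate 2 left out, 1.30% did. Genes with the most eligible intron were sparse in peaks in general. Of the 30 genes with most eligible intron 8 held a peak, with 17 distinct peaks in 7.48 Mb once shared DNA was counted once. The first 5 by eligible intron, led by Myo81F with 1950 kb, held none. The part of chromosomal position in this was not tested.

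**Figure D3:**
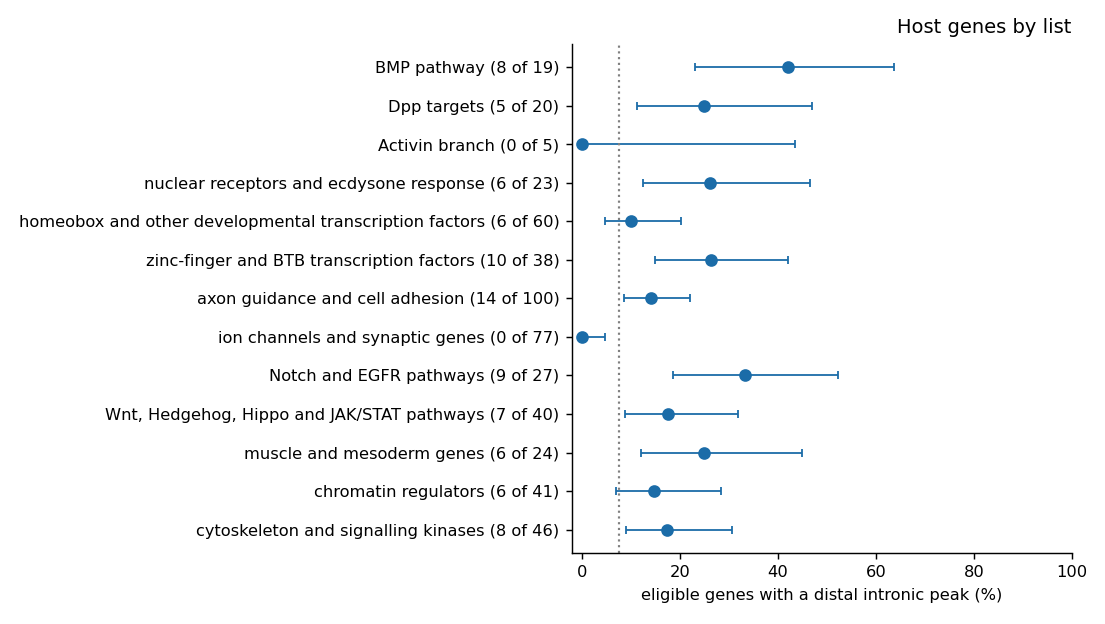
Share of eligible genes with a distal intronic peak (horizontal axis, %) in 13 lists, with 95% Wilson intervals that cover counting error only; counts are in parentheses and the dotted line is the 7.63% over all 4221 eligible genes. The BMP list is highest at 42.1% and ion channel and synaptic genes lie at 0; genes of longer intron have more room for a peak.

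Hosts of distal intronic peaks often had a promoter peak as well. Of 322 eligible protein-coding genes with a distal intronic peak in any host role, 143 had an optimal peak within 500 bp of their own TSS, 44.4% (39.1% to 49.9%), against 892 of 3899 eligible genes without one, 22.9% (21.6% to 24.2%). Hosts were longer, with a median of 32.6 kb against 8.08 kb. Among genes over 80 kb the shares were 46.8% and 14.0%, and among genes of 20 to 40 kb 37.9% and 21.2%. sbb, Eip75B, Dad, rdx, simj, SKIP, shn, tara, apt and crp had a promoter peak, while kirre, Raf, Hr4, ftz-f1, Antp and Zdhhc8 did not.

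In each replicate's own strongest 3392 regions, GC content over the 200 bp at the summit was lower in distal intronic than in other regions in 3 of 3 replicates, with medians of 37.8% and 39.3% in replicate 1, 37.3% and 39.8% in replicate 2, and 35.8% and 37.3% in replicate 3. The difference was -1.82 ± 0.574 percentage points (SD, n = 3; exact sign-flip p = 0.25). Over 100 bp it widened to -4.29 ± 1.14, and over 500 bp it reversed to 0.566 ± 0.403. Members of the intronic class thus had a narrow dip in GC at the summit within flanks of higher GC. The profile of intergenic regions had a dip as well, and in pooled distal intronic regions outside the optimal list it was shallow, at 41.8% in the bins at the summit against 42.3% to 42.4% in the bins beside them.

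**Figure D4:**
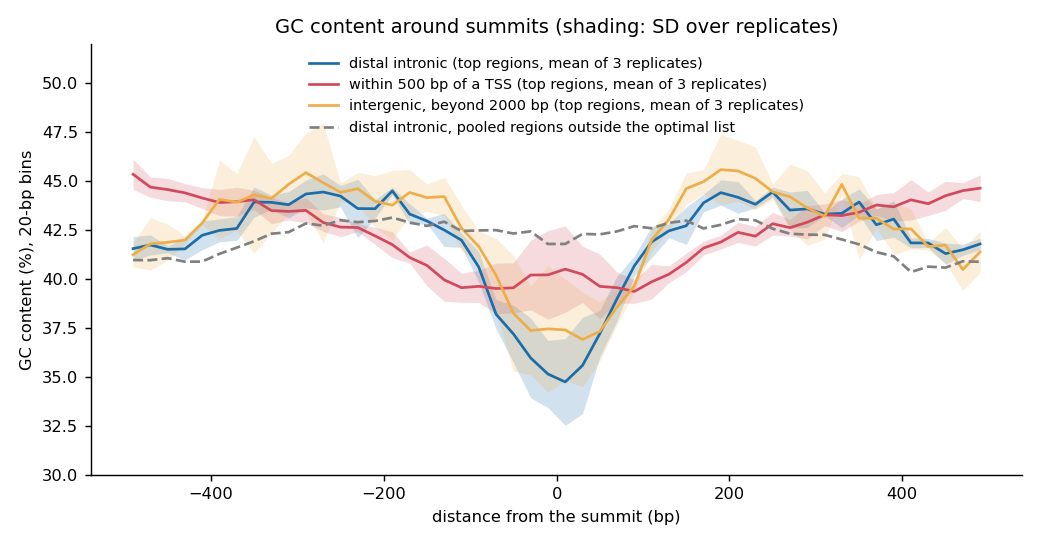
GC content (vertical axis, %) in 20-bp bins against distance from the summit (bp) for distal intronic, promoter and intergenic regions among the strongest 3392 of each replicate (lines, mean; shading, SD over 3 replicates) and for distal intronic pooled regions outside the optimal list (dashed). The distal intronic line falls to 34.7% at the summit from at most 44.5% on the flanks, and the dashed line stays between 40.4% and 43.1%.

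CpG dinucleotides were observed at 0.881 ± 0.00643 of the number expected from base composition in distal intronic regions, at 1.07 ± 0.0198 in the other regions and at 0.883 ± 0.0179 in intergenic regions beyond 2000 bp (mean ± SD, n = 3). Distal intronic regions were lower than the other regions in 3 of 3 replicates and lay within the spread of the intergenic ones.

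Both strands of the 100 bp on each side of the summit were searched for 33 motifs, and 7 had a share that differed by 2 percentage points or more with 1 sign in all 3 replicates. The BEAF-32 site TCGATA, bound by an insulator protein that sits at promoters of housekeeping genes, was present in 8.41%, 9.09% and 8.64% of the distal intronic regions and in 21.6%, 19.9% and 18.5% of the others, a difference of -11.3 ± 1.72 points (exact sign-flip p = 0.25, as for the other motifs with 1 sign). In the optimal list 50 of 477 peaks had it, 10.5% (8.04% to 13.6%), against 19.99% of all optimal peaks. The DNA replication-related element TATCGATA, which contains TCGATA, was in 2 of 477 peaks and in 6.49% of all optimal peaks. One of these is the noncoding RNA gene window printed above. M1BP sites, GGTCACAC, were in 2 of 477 against 3.60% of all peaks. Each was in 0.419% of the 477, and in promoter peaks the shares were 10.3% for TATCGATA and 5.54% for M1BP. Optimal peaks in introns 500 to 2000 bp from a TSS had 0.234% and 0.701%, and intergenic peaks beyond 2000 bp had 0% and 0.535%. Low shares were not particular to the distal intronic peaks. In the replicates' strongest regions the differences were -1.17 and -1.27 points against intronic regions within 2000 bp of a TSS. They were -0.605 and -0.538 points against intergenic regions. Against all other regions the E-box CAGCTG differed by -4.59 ± 1.47 points. GC content differed between these groups too, and its part in the motif shares was not tested. Against intergenic regions beyond 2000 bp, TCGATA and CAGCTG were instead more frequent in the introns, by 2.14 and 3.35 points, so the direction depends on the regions used for comparison.

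Motifs that were more frequent than in other regions differed by less. AP-1 sites, TGANTCA, bound by Jun and Fos proteins, were in 7.11%, 5.84% and 6.48% of the distal intronic regions and in 4.30%, 4.03% and 3.95% of the others, a difference of 2.38 ± 0.511 points. CA repeats, CACACACA, differed by 2.29 ± 0.594 and STAT sites, TTCNNNGAA, by 2.19 ± 0.864. CA repeats were in 5.66% of the 477 peaks and in 5.84% of optimal peaks in introns 500 to 2000 bp from a TSS. They were in 6.57% of the distal intronic pooled regions outside the optimal list. STAT sites were in 6.92% of the 477 and in 4.70% of those pooled regions. In the optimal list AP-1 was in 28 of 477, 5.87% (4.09% to 8.35%), beside 4.27% of all peaks, and in 4.92% of the distal intronic pooled regions outside it.

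Within 100 bp of the summit, the Mad site and the Smad box differed by less than the spread between replicates. The Mad site GCCGNCGC was in 6 of 477 peaks, 1.26% (0.578% to 2.72%), and in 1.68% of all optimal peaks. The Smad box GTCTG, which is short, was in 94 of 477, 19.7% (16.4% to 23.5%), and in 20.1% of all peaks. The differences over replicates were -0.209 ± 0.389 and -0.223 ± 1.35 points, each of mixed sign (exact p = 0.5 and 1). The Brinker site GGCGCC was in 16 of 477 peaks, 3.35% (2.08% to 5.38%), and in 4.07% of all peaks. Its difference was -0.800 ± 0.602 points, lower in 3 of 3 replicates (exact p = 0.25), and 0.709 points against intronic regions within 2000 bp of a TSS. Within 250 bp the Smad box was instead more frequent in the distal intronic regions, by 5.80 points (exact p = 0.25), and GC content over that window was also higher in them. Of the 33 motifs 21 had 1 sign in all 3 replicates, 11 of them higher and 10 lower in the distal intronic regions. A match states only that these letters are present in the window.

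**Figure D5:**
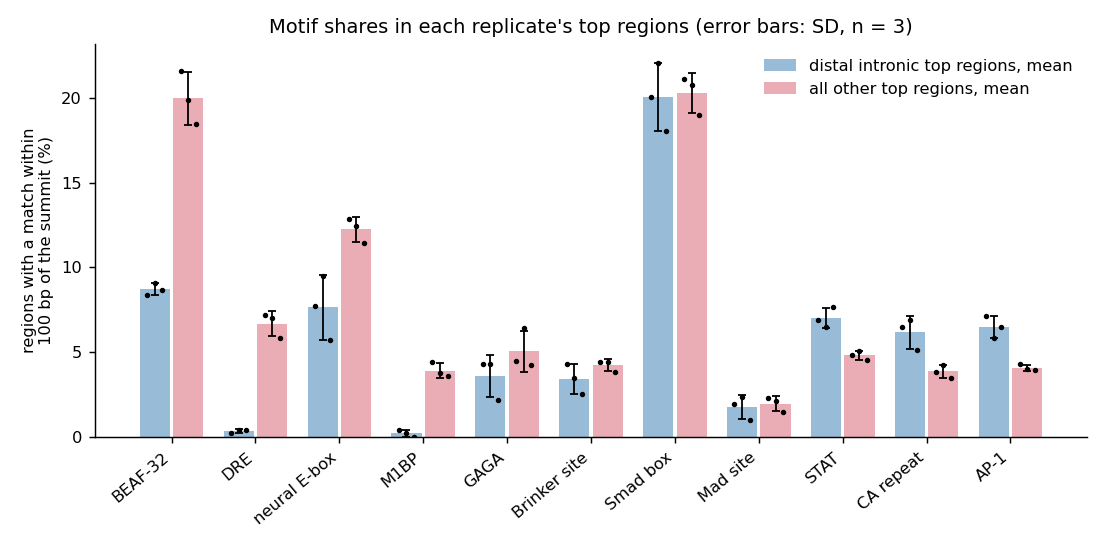
Share of regions (vertical axis, %) with a match within 100 bp of the summit, for distal intronic and all other regions among the strongest 3392 of each replicate, for 11 motifs; bars are means, error bars SD over 3 replicates, and points the replicates. The BEAF-32 site is at 8.71% against 19.98%, and the Smad box and Mad site overlap between the groups.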

How the data were processed

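The submitters deposited region lists in narrowPeak form for each of 3 replicates, for the pooled replicates (30000 regions each) and, as the optimal list, for regions that passed a test of reproducibility between replicates (3392). Aligner, peak caller, threshold and depth were not given in the sources used here. Per the file format, the signal column of the deposited lists is the caller's own value, and the summit offset is the deposited position of highest signal. Lists in dm3 were not used. Summits were placed on the Ensembl release 115 annotation (assembly BDGP6.54, pseudogenes and transposable elements left out) with Python 3.11.15, numpy, pandas and scipy. The host was a gene with an intron over the summit. Where there were several, protein-coding genes came first, and then the gene whose own TSS was nearest. Each peak took the strongest overlapping region of each replicate (at least 1 bp), and 475 of the 477 had one in all 3. Differences between groups of regions were taken per replicate and tested by an exact sign-flip permutation over replicates, since regions are not replicates; the procedures were checked on simulated data and by plain scans. Gene lists matched 638 of 641 symbols, 14 by an older name. Named genes are the hosts of the 25 strongest peaks, hosts of 4 or more, all hosts in the BMP and Dpp target lists, and the 3 of highest signal in each other list. The members, lists and motifs were chosen with earlier results of these data known. The summit window of 1 of the strongest peaks is not reported here. Alternatives changed the TSS limit, annotation, overlap, window and region number, and left out each replicate. The replicates are labelled as biological; the labels name no batch.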

Additional observations from a re-analysis of the deposited data

How the results depend on the processing

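The number of distal intronic peaks and hosts was 253 and 174 with a limit of 5000 bp from a TSS, and 228 and 180 among the strongest 1696 optimal peaks, and stayed within 1.5 times the count at 1000 bp, with other TSS sets and with whole peaks in introns. Support by all 3 replicates was 49.8% at 5000 bp, 44.9% with 50% reciprocal overlap, 99.6% with all 30000 regions and 26.2% with the strongest 1696 regions of each replicate. The share of strongest regions that was distal intronic was 12.99% with 1696 regions and 15.7% with 2 times the 3392 of the main setting. The signal difference from the other optimal peaks kept its sign under every alternative run. Against intergenic peaks beyond 2000 bp, as given above, it had the other sign, at 0.085 log2. The GC difference reversed to 0.566 percentage points over 500 bp. Leaving out 1 replicate gave signal differences of -0.116 to -0.0802 log2, GC differences of -1.99 to -1.49 points and distal intronic shares of 13.6% to 14.3%. Regions shared by all 3 replicates lay in 4.67% of all eligible genes and 8% of axon guidance genes, and leaving out 1 replicate gave 5.26% to 5.64% of all eligible genes, 7.32% to 9.76% of chromatin regulators, 9% to 10% of axon guidance genes, 10.9% to 13.04% of cytoskeleton and kinase genes and 0% to 1.30% of ion channel and synaptic genes; these sets hold fewer regions than the optimal list. Leaving out Dad, an alternative chosen after seeing the data, gave 38.9% of the BMP list and 21.1% of the Dpp targets. Of 231 recomputed motif differences 41 changed sign, in 21 motifs, in percentage points as follows, and the cause was not tested. Within 50 bp of the summit they were Grainyhead 0.0463, Pho 0.532 and Bicoid 0.0471. Within 250 bp they were Mad site 0.475, Smad box 5.8, Grainyhead 0.452, Snail E-box -2.03, homeodomain -2.95, Scalloped 2.93, CTCF -0.204, Runt 1.38 and Forkhead -1.6. Against intronic regions within 2000 bp of a TSS they were Mad site 0.245, Smad box 0.229, Brinker site 0.709, Grainyhead 0.0472, Scalloped 0.934, ETS 0.0477, Mef2 0.442 and Runt 0.125. Against intergenic regions beyond 2000 bp they were Mad site 0.785, GAGA 0.259, BEAF-32 2.14, GATA -2.11, CAGCTG E-box 3.35, Bicoid 1.01, Su(Hw) -0.854, CTCF -0.935, Tinman -0.867 and Runt 1.05. Leaving out 1 replicate gave both signs for Smad box -0.998 to 0.214, Grainyhead -0.103 to 0.0384, Sox -0.269 to 0.859, Scalloped -0.545 to 0.315, Mef2 -1.8 to 0.056, CTCF -0.0971 to 0.0945, Runt -0.334 to 0.16 and Forkhead -0.0269 to 1.52. No paired analysis was possible because 1 group leaves no second group of samples to pair; differences between classes of regions were taken within each replicate. Depth is unknown, which limits any statement about weak regions.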
